A study of Mus musculus with 3 samples.

Results

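The NF-κB transcription factors and the proteins that hold them in check were described here by 10 genes. They are the 5 subunit genes Nfkb1, Nfkb2, Rel, Rela and Relb, the 3 classical inhibitor genes Nfkbia, Nfkbib and Nfkbie, and the atypical inhibitor genes Nfkbiz and Bcl3. They were chosen by gene symbol, and all 10 were found among the 55536 genes of the deposited tables, with 56 of the 141862 annotated transcripts. Ribosomal RNA-depleted total RNA was sequenced from the cytosol of C57BL/6J mouse macrophages, phagocytes that were grown in culture from bone marrow. These cells had received 100 ng/ml lipid A, the part of bacterial lipopolysaccharide that the receptor Tlr4 senses, for 12 h and then none for 12 h, and were taken at 0 min of a new 100 ng/ml stimulation. Sex and age were not collected. The 3 libraries form 1 group, numbered as biological replicates 1, 2 and 3 under the same donor identifier, and nothing in the labels says that they came from separate animals. Every p below therefore concerns these 3 libraries alone, either their differences against counting error or the direction of a ratio within them. Differences between them may be technical. No untreated or restimulated macrophages were analysed here, so the values describe macrophages after this schedule and measure no response to lipid A. In such bulk RNA, fewer cells expressing a gene and less RNA per cell cannot be told apart.

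NF-κB factors are dimers of Rel-family subunits that bind κB sites in DNA, and in macrophages they switch on inflammatory genes downstream of Toll-like receptors. In resting cells the IκB proteins keep the dimers in the cytoplasm. In the classical pathway the IκB kinases mark an IκB for destruction and free dimers such as p50 with RelA or c-Rel, whereas in the alternative pathway the p100 precursor is cut to p52, which partners RelB. Several inhibitor and subunit genes are themselves NF-κB targets, so the system feeds back on itself.

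The κB-like sequences at the starts of these genes are shown first, because κB sites are the DNA that NF-κB dimers recognise. RefSeq promoters on build GRCm38.p6, each 250 bases before to 50 after a start, were matched by symbol for 7 of the 10 genes, in 9 windows. Nfkb1, Relb and Nfkbiz had no entry. The motif searched on both strands was the 10-base κB consensus, which reads GGG, a purine, any base, A or T, a pair of pyrimidines and CC. It occurred in 4.51% of all 32851 promoters of that length, and in windows of 5 members, Nfkb2, Rel, Nfkbia, Nfkbie and Bcl3. No match was found in the windows of Nfkbib or Rela. There were 10 distinct matches. Of these 7 are shown, and the others are a shifted copy of the Rel match, a shifted copy of the first Nfkb2 match, and a match 236 bases before the second Nfkb2 start. Each line gives 30 bases around a match, read 5′ to 3′ on the strand of the gene, with the matched 10 bases in capitals. For Nfkbia and Bcl3 the consensus reads on the opposite strand.
Nfkb2, first start, chr19:46304688-46304717, plus strand: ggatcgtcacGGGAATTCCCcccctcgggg
Nfkb2, first start, chr19:46304716-46304745, plus strand: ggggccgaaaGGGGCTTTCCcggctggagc
Nfkb2, second start, chr19:46305695-46305724, plus strand: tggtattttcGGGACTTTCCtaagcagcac
Rel, chr11:23771042-23771071, minus strand: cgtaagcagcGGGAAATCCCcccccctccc
Nfkbia, chr12:55492657-55492686, minus strand: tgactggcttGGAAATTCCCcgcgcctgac
Nfkbie, chr17:45555584-45555613, plus strand: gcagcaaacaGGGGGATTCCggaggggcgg
Bcl3, chr7:19822734-19822763, minus strand: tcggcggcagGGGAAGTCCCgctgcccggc
The capitals begin 39 and 11 bases before the first Nfkb2 start, 92 before the Rel start, 29 before the Nfkbia start and 106 before the Nfkbie start. In the second Nfkb2 window and in Bcl3 they lie 10 and 2 bases after the start. A match describes these letters and is not evidence of binding in these cells. The 250 bases before the Nfkbia start, chr12:55492648-55492897 on the minus strand, are given in full because Nfkbia was the most abundant of the 10 messages.
Nfkbia: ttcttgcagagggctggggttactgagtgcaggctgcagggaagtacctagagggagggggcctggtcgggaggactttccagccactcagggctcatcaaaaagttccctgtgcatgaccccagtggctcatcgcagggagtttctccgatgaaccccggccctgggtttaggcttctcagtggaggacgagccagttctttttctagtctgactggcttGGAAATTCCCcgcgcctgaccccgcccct

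All 10 genes were expressed in every library. Levels are in TPM, a transcript abundance normalised for transcript length and library total. All 10 reached 1 TPM in each library, as did 9074 of the 22028 protein-coding genes (41.2%), and 7 of the 10 reached 10 TPM in each, as did 17.1% of protein-coding genes. The median of the 10 mean levels was 17.5 TPM, beside 8.78 TPM over the protein-coding genes at 1 TPM or more. The means of Rel and Nfkbie, 6.55 and 8.02 TPM, lay below the latter. Together the 10 held 199.9, 222.1 and 202.4 TPM in replicates 1, 2 and 3.

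**Figure D1:**
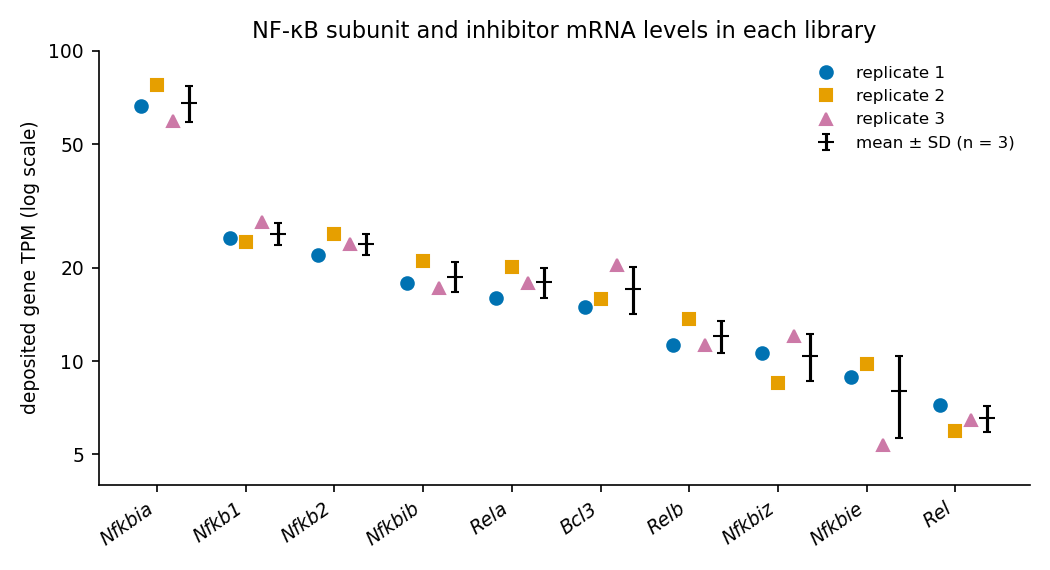
Deposited TPM of the 10 genes on a log axis, in order of mean level, with a point for each of the 3 libraries and the mean ± SD beside them. Nfkbia stands alone at 67.8 TPM, Nfkb1 and Nfkb2 overlap at 25.7 and 23.8 TPM, and Rel has the lowest mean at 6.55 TPM.

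Among the subunits, the precursor genes led. Nfkb1 (chromosome 3, 135584655 to 135691547, minus strand), which encodes p105, the precursor of p50, held 24.9, 24.2 and 28.1 TPM in replicates 1, 2 and 3. Nfkb2 (chromosome 19, 46304320 to 46312385, plus strand), which encodes p100, the precursor of p52, held 21.9, 25.6 and 23.9 TPM. Their ranges overlapped, and Nfkb1 was the higher in 2 of the 3 libraries, with a ratio of Nfkb1 to Nfkb2 of 1.09 ± 0.125 (SD, n = 3). Their means of 25.7 ± 2.11 and 23.8 ± 1.86 TPM (SD, n = 3) ranked 1845 and 1988 among the 22028 protein-coding genes.

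The subunits with a transactivation domain were lower, in the order Rela, Relb, Rel in every library. Rela (chromosome 19, 5637483 to 5648130, plus strand), which encodes p65, the main activating subunit of the classical pathway, held 16.0, 20.0 and 17.9 TPM. Relb (chromosome 7, 19606217 to 19629438, minus strand), the partner of p100 and p52, held 11.3, 13.7 and 11.2 TPM. Rel (chromosome 11, 23736847 to 23770970, minus strand), which encodes c-Rel, held 7.21, 5.96 and 6.47 TPM. None of these 3 ranges overlapped another. Their means were 17.98 ± 2.02, 12.1 ± 1.41 and 6.55 ± 0.629 TPM (SD, n = 3), and Rela was 2.78 ± 0.572 times as high as Rel. With 3 libraries a sign-flip test over libraries (exact, two-sided) cannot give a p below 0.25, which is the value for the Rela to Rel ratio and for every ratio below that keeps its direction in all 3.

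The classical inhibitors, which bind dimers through ankyrin repeats, spanned the widest range. Nfkbia (chromosome 12, 55489410 to 55492647, minus strand), which encodes IκBα, held 66.4, 77.4 and 59.6 TPM. Nfkbib (chromosome 7, 28758251 to 28767512, minus strand), which encodes IκBβ, held 17.8, 21.1 and 17.3 TPM. Nfkbie (chromosome 17, 45555703 to 45563169, plus strand), which encodes IκBε, held 8.87, 9.82 and 5.36 TPM. All 3 were highest in replicate 2 and lowest in replicate 3, and their ranges did not overlap one another. Nfkbia averaged 67.8 ± 8.97 TPM, rank 689 among protein-coding genes, with 96.9% of them below it. Nfkbib averaged 18.7 ± 2.07 TPM and Nfkbie 8.02 ± 2.35 TPM (SD, n = 3). Nfkbia was 3.62 ± 0.146 times as high as Nfkbib and 8.83 ± 1.99 times as high as Nfkbie (SD, n = 3).

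The atypical IκB genes encode nuclear proteins that bind p50 or p52 on DNA and can raise as well as lower transcription. Bcl3 (chromosome 7, 19808462 to 19822770, minus strand) held 14.9, 15.9 and 20.5 TPM. Nfkbiz (chromosome 16, 55811375 to 55838899, minus strand), which encodes IκBζ, a co-activator of secondary response genes such as Il6, held 10.7, 8.53 and 12.1 TPM. Both were highest in replicate 3 on this scale, unlike the classical inhibitors. The Nfkbiz to Bcl3 ratio was 0.613 ± 0.09 (SD, n = 3) and stayed below 1 in each library.

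Some neighbours in the order of levels could not be separated. Of the 9 neighbouring pairs, 3 had ranges that did not overlap and kept their order in every library. They were Nfkbia above Nfkb1 by 2.63-fold, Nfkb2 above Nfkbib by 1.27-fold, and Bcl3 above Relb by 1.41-fold. These folds are geometric means of the TPM ratios within each library. The other 6 overlapped: Nfkb1 and Nfkb2, Nfkbib and Rela, Rela and Bcl3, Relb and Nfkbiz, Nfkbiz and Nfkbie, and Nfkbie and Rel did not differ beyond their spread. Among all 45 pairs of members, 38 had ranges that did not overlap. Nfkbia had the highest mean and Rel the lowest under each of the 8 other TPM or FPKM settings tried, but in replicate 3 alone Nfkbie was below Rel. On raw counts, which also grow with transcript length, Rel ranked 4 among the 10, with 2509, 4167 and 3324 expected counts, and Nfkbib ranked 9, with 859, 2094 and 1264.

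**Figure D2:**
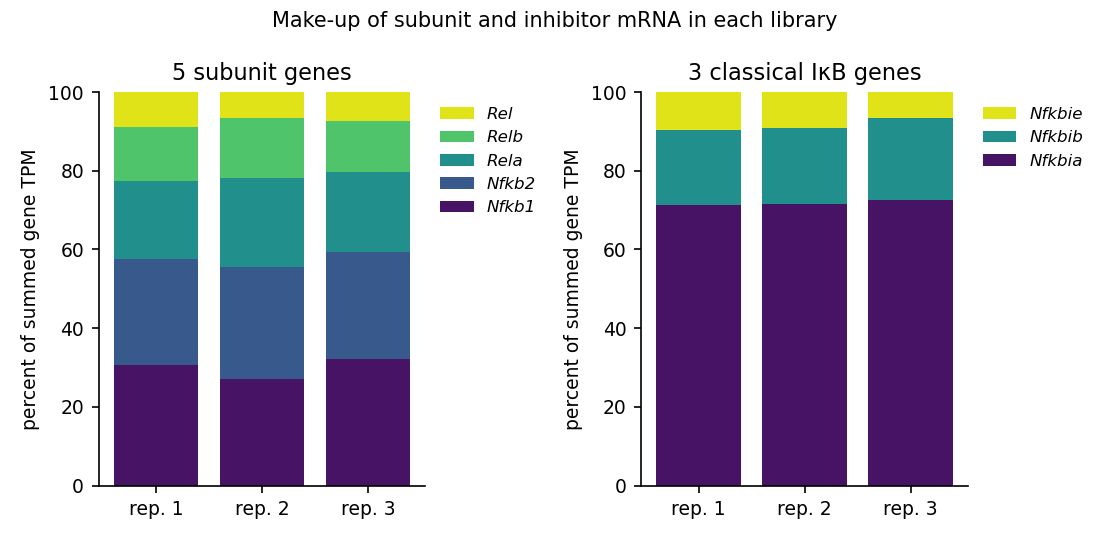
Share of each gene in the summed TPM of the 5 subunit genes (left) and of the 3 classical inhibitor genes (right), with a bar for each library running to 100%. Nfkb1 and Nfkb2 make up more of the subunit sum than the other 3 together in each library, and Nfkbia holds 71.3 to 72.5% of the inhibitor sum.

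The make-up of the family varied little between libraries. Of the summed subunit TPM, Nfkb1 took 29.9 ± 2.61%, Nfkb2 27.6 ± 0.889%, Rela 20.8 ± 1.40%, Relb 14.0 ± 1.25% and Rel 7.64 ± 1.13% (SD, n = 3). The alternative pathway genes Nfkb2 and Relb together took 40.8, 43.9 and 40.1% in replicates 1, 2 and 3, and the Nfkb2 to Relb ratio was 1.98 ± 0.132. The precursor genes Nfkb1 and Nfkb2 together took 57.5 ± 1.86%. Within the classical inhibitors Nfkbia took 71.8 ± 0.630%, Nfkbib 19.9 ± 0.993% and Nfkbie 8.37 ± 1.62% (SD, n = 3), the Nfkbie share being 9.53, 9.07 and 6.52% in replicates 1, 2 and 3.

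Classical inhibitor message was about as abundant as subunit message. The 3 inhibitors summed to 93.1, 108.3 and 82.2 TPM and the 5 subunits to 81.2, 89.5 and 87.6 TPM in replicates 1, 2 and 3. The ratio of inhibitors to subunits was 1.15, 1.21 and 0.938, above 1 in replicates 1 and 2 and below it in replicate 3 (mean 1.098 ± 0.142, SD, n = 3, exact two-sided sign-flip test p = 0.5). The ratio depends on counting per length: on expected counts, which carry no correction for length, it averaged 0.507. Nfkbia alone was 4.15, 3.86 and 3.33 times as high as Rela. Message ratios do not give the ratio of the proteins.

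Between libraries most of the members differed by modest ratios. Expected counts, the estimated reads per gene, totalled 28981178, 53119941 and 46783133 over genes in replicates 1, 2 and 3. The members held from 847 (Nfkbie in replicate 3) to 10070 (Nfkbia in replicate 2), so counting alone gives a coefficient of variation of 0.997 to 3.44%. CPM, the counts relative to library total, were scaled by TMM factors from edgeR, and a gene was called different where a chi-square test across libraries gave a Benjamini-Hochberg adjusted p under 0.05 over all genes and the highest library was at least 2 times the lowest. By this rule 1 of the 10 members was called, against 16.3% of the 13636 genes tested and 8.2% of protein-coding genes. At any ratio all 10 passed, against 74.7% of all genes tested. That background includes genes with a mean of 10 counts, whereas each member had at least 847 in every library. The test compares these libraries on counting error and says nothing of conditions.

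Nfkbie was the member called. Its scaled CPM were 33.3, 39.6 and 17.6 in replicates 1, 2 and 3, a ratio of 2.24 between highest and lowest (chi-square test, Benjamini-Hochberg adjusted p = 6.61e-90), with 1.8% of all genes tested called and lowest in replicate 3. Replicate 3 stood below the others, and without it the ratio was 1.18. Without replicate 2 the ratio was 1.92, so the call needed both libraries. Nfkbia came next, with 150.2, 189.0 and 118.9 CPM and a ratio of 1.59 (adjusted p = 1.15e-174 by the same test). Nfkbib followed with 30.5, 39.3 and 26.3 CPM, a ratio of 1.49, and Relb with 37.5, 48.1 and 33.1 CPM, a ratio of 1.46. All 4 had replicate 2 highest and replicate 3 lowest.

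The other 6 members had ratios of 1.06 to 1.31. Nfkb1 varied least, with 120.2, 119.0 and 113.4 CPM and a ratio of 1.06 (adjusted p = 0.0124 by the chi-square test with Benjamini-Hochberg adjustment). Nfkb2 held 107.2, 132.5 and 101.0 CPM, and Rela 66.7, 81.0 and 63.0, both highest in replicate 2. Rel was highest in replicate 1, with 89.1, 78.2 and 69.2 CPM. On this scale 8 of the 10 members were lowest in replicate 3, where 37.6% of the protein-coding genes tested were lowest, and the exceptions were Nfkbiz, lowest in replicate 2, and Bcl3, lowest in replicate 1. The direction depends on the scale, since Nfkb1 was highest in replicate 3 on TPM and lowest there on scaled CPM. The median ratio was 1.30 for the 10 members, 1.30 for all genes tested and 1.26 for protein-coding genes. Biological coefficients of variation from edgeR ran between 0.119 for Nfkb1 and 0.255 for Nfkbie, with a median of 0.135, beside 0.156 over protein-coding genes.

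**Figure D3:**
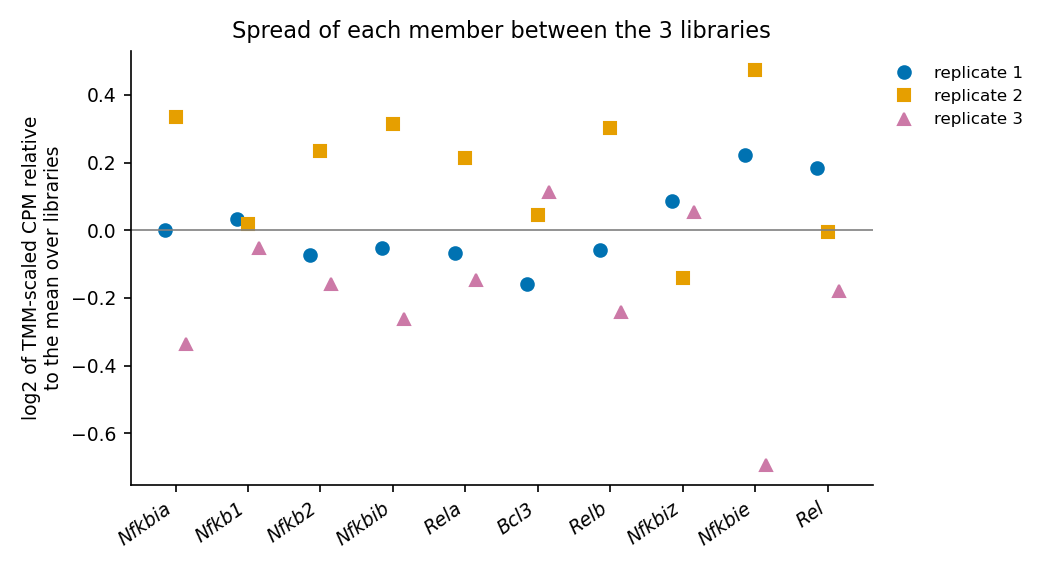
For each member, the log2 of its TMM-scaled CPM in each library relative to the mean over the 3 libraries, with genes ordered by mean TPM. Replicate 3 is lowest for 8 of the 10 genes, and Nfkbie in replicate 3 lies farthest from 0.

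For 8 of the 10 genes a single transcript held a mean of at least 84.2% of the gene's TPM in the alignment-derived table. Rel had 1 annotated transcript. Nfkbia-201, Nfkbib-202 and Nfkbie-201 held 99.3 ± 0.370%, 98.8 ± 0.555% and 94.4 ± 1.73% of their genes (SD, n = 3), and Relb-202 held 88.8 ± 5.23%. In the table made directly from the reads Relb-202 held 95.6, 71.6 and 70.9% in replicates 1, 2 and 3. Rela-201, with a coding sequence of 549 codons, held 97.7, 86.4 and 93.7% in replicates 1, 2 and 3, and 90.7, 76.3 and 82.98% in the read-derived table. Nfkbiz-204, which encodes the 728-codon form, held 93.3 ± 1.78%, while Nfkbiz-203, which starts 16761 bases away and encodes 629 codons, held 4.86 ± 2.31% (SD, n = 3). Bcl3-201 held 84.2 ± 0.708%, and a short Bcl3-203 of 114 codons held 14.0 ± 2.01% in the alignment-derived table but 3.52 ± 1.34% in the read-derived table.

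The precursor genes Nfkb1 and Nfkb2 each used several transcripts. Nfkb2-201 held 47.6, 55.9 and 46.4% of Nfkb2 TPM in replicates 1, 2 and 3, and Nfkb2-202 held 40.6, 32.1 and 44.5%. They start 952 bases apart, close to the first and second starts whose κB-like sequences are printed above, and both encode the same number of codons, 899. Which of them leads depends on the table: Nfkb2-201 averaged 49.97 ± 5.18% and Nfkb2-202 39.1 ± 6.31% in the alignment-derived table, against 39.9 ± 5.72% and 51.0 ± 5.99% in the read-derived table (SD, n = 3). Nfkb2 was the single member whose leading transcript changed between the tables. The annotated non-coding gene AC114539.1 runs on the opposite strand across the first of these starts, with 320, 595 and 465 counts. The sources used here do not give whether reads were assigned by strand, so reads of such a pair may be mixed. The same limit holds for the end of Nfkb2, which overlaps Psd with 89.1, 257 and 191 counts. Nfkbib overlaps Sirt2 on the opposite strand, a gene with 2612, 5407 and 4022 counts. Of the Nfkbib transcripts only Nfkbib-203 reaches into Sirt2, and it held 0 TPM in every library in both tables.

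Nfkb1-206 held 46.4 ± 0.228% of Nfkb1 TPM (SD, n = 3) in the alignment-derived table, where it hardly varied between libraries. In the read-derived table it held 47.5, 52.3 and 48.5% in replicates 1, 2 and 3. Nfkb1-201, which starts 23747 bases upstream and also has 971 codons, held 24.8, 19.4 and 13.9% in replicates 1, 2 and 3, and 39.7, 35.03 and 21.1% in the read-derived table. It was lowest in replicate 3 in both tables. Nfkb1-203 held 19.7 ± 1.11% in the alignment-derived and 9.02 ± 1.04% in the read-derived table (SD, n = 3). Its annotated coding sequence of 1600 bases is not a whole number of codons, so no protein length is given for it. The tables disagreed on Nfkb1-207, annotated as a target of nonsense-mediated decay, which held 6.83, 13.7 and 5.44% in the alignment-derived tables of replicates 1, 2 and 3 and 0 in all 3 read-derived tables.

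**Figure D4:**
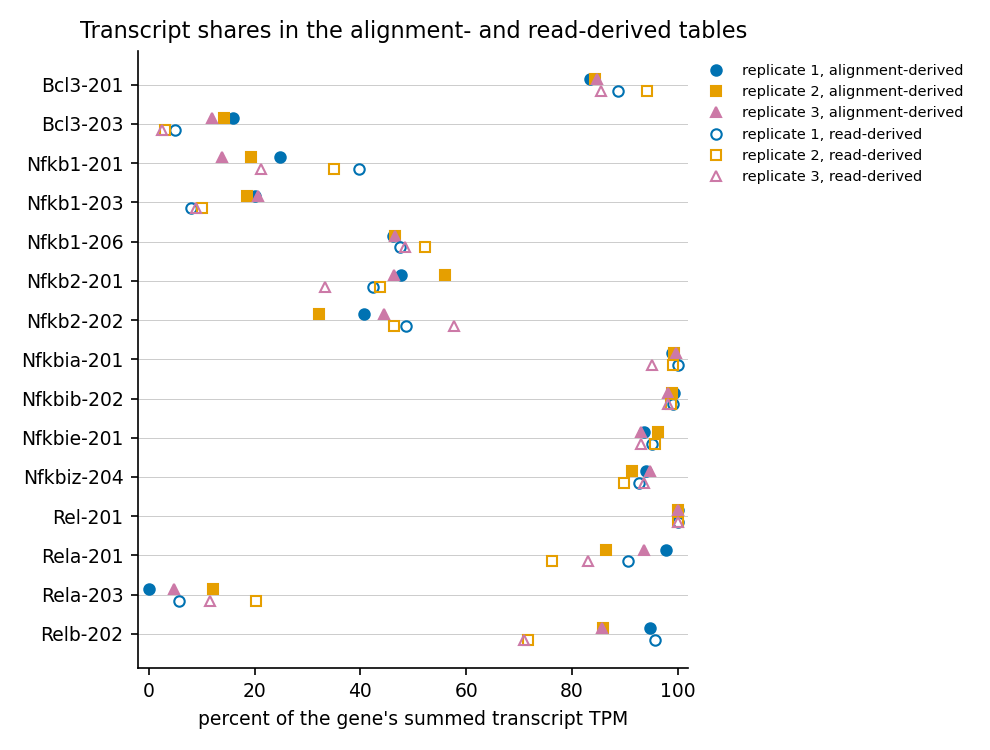
Percent of each gene's summed transcript TPM held by its main transcripts, with filled symbols for the alignment-derived and open symbols for the read-derived table and a symbol shape for each library. Nfkb2-201 and Nfkb2-202 exchange places between the tables, whereas Nfkbia-201, Nfkbib-202 and Rel-201 stay near 100% in both.

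Transcripts annotated as retaining an intron made up more of Nfkb1 in replicate 3 than in the other libraries. They held 2.21, 0.745 and 13.4% of Nfkb1 TPM in replicates 1, 2 and 3, from 62.8, 46.0 and 712 expected counts, and 2.75, 1.81 and 18.4% in the read-derived table. Other genes had the same direction: over the 5706 protein-coding genes that have such transcripts and reach 1 TPM in every library, the median share was 0.708, 0.595 and 5.08%, and the share was highest in replicate 3 for 83.3% of them. Of the 7 members with such transcripts, 5 were highest in replicate 3, and 6 of 7 in the read-derived table, where 89.2% of those 5706 genes were highest in replicate 3 and the median share was 1.19, 0.939 and 8.38%. Malat1, a nuclear long non-coding RNA, moved the same way, with 157.7, 91.1 and 1343 TPM, and all 6 nuclear-retained RNAs tested were called and highest in replicate 3, as were 11.7% of all genes tested. The part of nuclear RNA in these shares was not tested. Gm43430, an unverified gene inside Nfkb1 on the same strand, held 6, 2 and 120 counts.

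With coding transcripts alone, a measure added after seeing the data, Nfkb1 held 22.6, 20.4 and 22.8 TPM and Nfkb2 21.8, 25.4 and 23.5 TPM in replicates 1, 2 and 3. The mean of Nfkb1, 22.0 ± 1.35 TPM, then lay below that of Nfkb2, 23.6 ± 1.79 TPM (SD, n = 3), with Nfkb1 higher in replicate 1 and Nfkb2 higher in replicates 2 and 3. Rela differed from Nfkb1 in its pattern. Its retained-intron transcript Rela-203 held 0, 12.1 and 4.74% of TPM in replicates 1, 2 and 3, from 0, 132 and 33.8 expected counts. Those were 0, 3.06 and 1.12% of the expected counts of Rela. In the read-derived table Rela-203 held 5.65, 20.2 and 11.5% of TPM, and it was highest in replicate 2 in both tables.

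**Figure D5:**
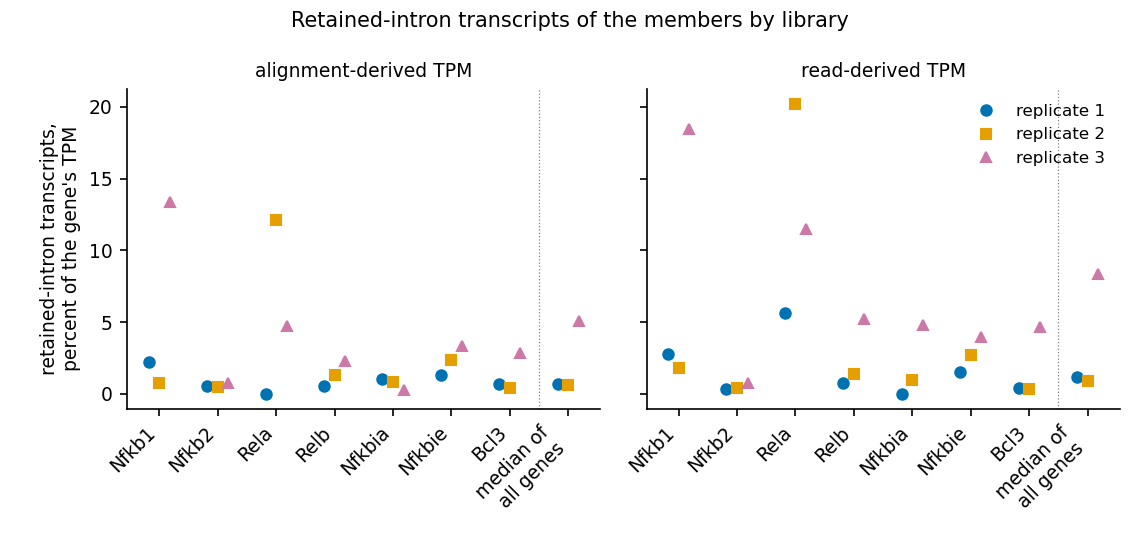
Percent of each gene's TPM in transcripts annotated with a retained intron, for the 7 members that have such a transcript and for the median over 5706 protein-coding genes, in the alignment-derived (left) and read-derived (right) tables, with a symbol for each library. Nfkb1 reaches 13.4% and 18.4% in replicate 3, and Rela is highest in replicate 2.

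The kinases and adaptors that act on these inhibitors were expressed throughout. All 23 genes of a list of IκB kinases and their upstream regulators reached 1 TPM in every library, with a median of 11.7 TPM, and 0 of 23 were called between libraries by the chi-square rule with TMM scaling. At any ratio 19 passed the adjusted p. The background given above is 16.3% of all genes tested and 8.2% of protein-coding genes called, and 74.7% of all genes tested passing at any ratio. Ikbke, an IκB kinase-related gene, was the highest at 63.4 ± 21.7 TPM, followed by Birc3, a ubiquitin ligase gene, at 32.9 ± 1.79 and Sharpin, of the linear ubiquitin ligase complex, at 29.3 ± 2.98 TPM. Tab3, an adaptor of the kinase Tak1, was the lowest at 3.04 ± 0.232 TPM (SD, n = 3).

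All 13 genes of a list for the turnover of IκB proteins and the precursors also reached 1 TPM in every library, with a median of 19.7 TPM. The ubiquitin-conjugating gene Ube2d3 led at 127.1 ± 12.9 TPM, before Nedd8 at 98.8 ± 3.82 and Ube2m at 49.7 ± 1.90 TPM, which together activate cullin ligases. Btrc, an F-box gene whose product recognises phosphorylated IκB, was lowest at 3.40 ± 0.690 TPM. Fbxw11, another F-box gene of the list, held 19.7 ± 1.07 TPM (SD, n = 3). Of 16 further brakes on the pathway all reached 1 TPM, with a median of 11.1 TPM. Tnip3 and Tnip1, which bind the ubiquitin-editing enzyme A20, held 45.4 ± 7.85 and 32.4 ± 0.911 TPM, and Tnfaip3, which encodes A20, held 22.4 ± 2.02 TPM. Nfkbid, a further atypical IκB gene, was lowest at 1.45 ± 0.375 TPM (SD, n = 3). None of the genes of either list was called between libraries by the same rule, and 12 of the 13 and 13 of the 16 passed the adjusted p at any ratio.

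The levels of known NF-κB target genes spanned a wide range. Of 30 targets, 28 reached 1 TPM in every library, with a median of 27.6 TPM. Between libraries 7 were called, 23.3% against a background of 16.3% of all genes tested and 8.2% of protein-coding genes. The chemokine genes Ccl5 and Cxcl10 and the Schlafen gene Slfn2 were the highest, at 4852 ± 869, 412 ± 217 and 340 ± 43.8 TPM (SD, n = 3). Il6, the lowest, held 0.787 ± 0.649 TPM (SD, n = 3). By ratio of scaled CPM the most variable were Il6 (6.62), the neutrophil chemokine genes Cxcl1 (6.54) and Cxcl2 (4.16), and the prostaglandin synthase gene Ptgs2 (3.88). These 4 were each highest in replicate 2. The Il6 and Cxcl1 ratios rest on few reads, with lowest values of 0.354 CPM in replicate 3 for Il6 and 0.320 CPM in replicate 1 for Cxcl1. Cxcl1 held 0.887 ± 0.705 TPM (SD, n = 3). Of all 7 called targets, 5 were highest in replicate 2 and 2 in replicate 1. No relation between the targets and the members was tested.

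The labelled cell type matched its markers. All 10 macrophage markers reached 10 TPM in every library, summing to 7594, 6909 and 8256 TPM in replicates 1, 2 and 3. Of 9 neutrophil markers 2 reached 1 TPM in every library, with sums of 5.27 to 10.3 TPM. None of the B cell, T and NK cell, dendritic cell or stromal markers did so in every library, with sums of up to 0.04, 0.19, 1.21 and 2.02 TPM. TPM is a share of the whole table, and protein-coding genes took 31.0, 27.2 and 31.6% of TPM in replicates 1, 2 and 3. With TPM rescaled to protein-coding genes Nfkbia held 214.4, 284.1 and 188.7, and Nfkb1 80.3, 88.8 and 89.1. In the read-derived table the members' TPM were a median of 0.444, 0.425 and 0.268 times those of the alignment-derived table, and protein-coding genes 0.460, 0.440 and 0.284 times.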

How the data were processed

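Total RNA depleted of ribosomal RNA was measured in the cytosolic fraction of 3 macrophage libraries, per the labels. Per the deposited README, the authors made 1 gene and 1 transcript table from alignments to mm10 using annotation M21, and another transcript table straight from the reads. For the aligner, the quantifier and strand use, nothing is given in the labels or headers.

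The deposited values include expected counts, which estimate the reads of a gene or transcript and split shared reads. The deposited TPM and FPKM values are normalised for length and library total, per the file headers. Rows that name no gene (26345 of 81881) held 0.418, 0.248 and 0.165% of expected counts in replicates 1, 2 and 3 and entered no library size or test. A count of 0 would allow 0.104, 0.0565 and 0.0641 CPM, from 3 counts of the total, which covers counting error only. Depth was 28981178, 53119941 and 46783133 expected counts.

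Levels are deposited gene TPM. Gene TPM in the read-derived table is the sum over a gene's transcripts. For the test between libraries, expected counts were rounded to whole numbers, and TMM factors came from edgeR 4.0.16 under R 4.3.3. A chi-square test of homogeneity was run on every gene with a mean of 10 or more counts, with Benjamini-Hochberg adjustment over all genes tested. A gene was called at an adjusted p under 0.05 and a ratio of 2 or more between libraries, 0.5 counts being added to each for the ratio. The test was checked on simulated counts with known changes, drawn with counting error alone. That check cannot show how often the test calls genes whose libraries vary beyond counting error. Coefficients of variation came from edgeR over genes whose count was 10 or more in each library. Neighbouring genes were compared by their ranges and by an exact two-sided sign-flip test over libraries.

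Coordinates are those of annotation M21 on GRCm38, and promoters are RefSeq's on GRCm38.p6. A transcript was named where its mean share reached 10% in either table. Nfkb1-207, Nfkbiz-203 and Nfkbib-203 fall outside that rule and were picked once their values had been seen. Of each pathway list the 3 highest genes, the lowest and up to 4 called genes were named, and Fbxw11 was added outside that rule. The members and lists were chosen with earlier results of these data known. Alternatives were posterior mean TPM, read-derived TPM, FPKM, TPM rescaled to protein-coding genes, expected counts, size factors from DESeq2 1.42.0, count minimums of 0 and 50, a ratio of 1.5, protein-coding genes alone, and leaving out each replicate. TPM of coding transcripts alone was added after seeing the data. The software was Python 3.11.15 with scipy 1.17.1, numpy 2.4.6, matplotlib 3.10.9 and pandas 2.3.3.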

Additional observations from a re-analysis of the deposited data

How the results depend on the processing

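The number of neighbouring pairs of members with separate ranges, 3 on deposited TPM, was 1 with read-derived TPM, 1 with FPKM and 1 with TPM rescaled to protein-coding genes, and 3 to 6 with each replicate left out. The cause was not tested, except that fewer libraries leave narrower ranges. The share of Nfkb2 and Relb in subunit message was 36.4% on expected counts in place of 41.6%, and the inhibitor to subunit ratio reversed to 0.507 on expected counts, which carry no length correction. With each replicate left out these were 40.4 to 42.4% and 1.04 to 1.18. The number of members called between libraries was 2 at a ratio of at least 1.5, Nfkbia being added, where 27.1% of all genes were called, and 0 to 1 with each replicate left out (0 without replicate 2 or 3), where 14.4, 13.9 and 4.79% of all genes were called without replicates 1, 2 and 3. Under the other settings run, both counts stayed within 1.5 times, the share moved by less than 1 SD, the ratio stayed above 1 (1.42 with Nfkbiz and Bcl3 counted as inhibitors), and at least 9 members had the same leading transcript. Of the levels and transcript shares of single members, 89 of 130 recomputed values moved by less than 1 SD. That tally is no measure of robustness, because leaving out 1 of 3 libraries cannot move a mean by 1 SD. Levels in FPKM or rescaled TPM also lie on other scales than deposited TPM, so they moved for that reason. The number of genes called over the whole table was 605 without replicate 3, against 2219 with it. Passing the adjusted p at any ratio also depended on the setting. Nfkb1 did not pass with a mean of at least 50 counts, with protein-coding genes alone or without replicate 3. Neither did Nfkbiz without replicate 2 or Bcl3 without replicate 1. No paired analysis was possible because there is 1 group. With 3 libraries, the exact two-sided sign-flip test cannot give a p below 0.25.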
